A study of Mus musculus with 27 samples.

Results

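All 18 hippocampal libraries labelled P301S tau:+ were compared with all 9 libraries labelled P301S tau:-, out of 27 libraries in the series, each made from 1 mouse. Nuclei were isolated from frozen hippocampus and their RNA was counted by single-nucleus RNA sequencing, which reads the 3′ ends of transcripts and counts each molecule once as a unique molecular identifier (UMI). P301S mice carry a human tau transgene with the frontotemporal dementia mutation P301S, driven by the prion protein promoter, and the line had been crossed with a line lacking Cgas, the DNA sensor cGAS. The P301S libraries comprised 6 labelled P301S Cgas+/+, 6 labelled P301S Cgas+/- and 6 labelled P301S Cgas-/-, from 9 males and 9 females. The tau-free libraries comprised 5 labelled Cgas+/+ (3 males and 2 females), 2 males labelled Cgas+/- and 2 males labelled Cgas-/-. The labels give no age, and the study's text is not uniform on it (8 to 9 or 9 to 10 months). The libraries were pooled over the 3 Cgas genotypes because the question here was what P301S itself went with, so Cgas genotype and sex entered each test as covariates.

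Tau is a microtubule-associated protein of neurons, and mutant tau aggregates into tangles in their cell bodies and processes. Microglia and astrocytes respond to neurons laden with tau: microglia lower the genes of their resting state and raise genes for lipid handling, lysosomes and antigen presentation, and astrocytes raise intermediate filament and secreted protease inhibitor genes. Type I interferon, released by cells that sense stray nucleic acid, acts through its receptor and transcription factors on a broad set of antiviral genes that most cell types can express.

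The 27 libraries held 46091490 to 79484316 UMIs and 7246 to 14770 barcodes each. Barcodes with 200 to 4000 detected genes and at most 5% mitochondrial UMIs numbered 221281, and 204852 remained after doublets were removed, 139043 from P301S and 65809 from tau-free libraries. Median UMIs per nucleus ranged from 2023 to 7086 over P301S and from 3632 to 7540 over tau-free libraries. Nuclei were clustered and clusters were given a class, named X-like, only where their markers fitted 1 class, which left 15044 nuclei (7.34%) unnamed. In the library labelled P301S Cgas+/+ replicate 3, 51.6% of nuclei were unnamed, and in P301S Cgas+/- replicate 1 30.9%. The file headers name software version 3.0.2 for 12 libraries, all male and 6 of each tau status, and 3.1.0 for the other 15, of which 12 were P301S and 3 tau-free, these last all labelled Cgas+/+. Any pair of libraries shared 8 to 48 barcodes, at most 0.57%. Cgas, listed under its older symbol Mb21d1, does not separate the Cgas labels: its level in microglia-like nuclei was 40.4 to 58.4 CPM (UMI counts scaled by all UMIs of that class in the library, to the usual CPM total) in the 6 libraries labelled P301S Cgas-/- and 26.3 to 57.0 in the 6 labelled P301S Cgas+/+. A 3′ count of nuclear RNA need not cover the deleted exons, so it does not check that allele.

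Within each class UMIs were summed per library and tested with edgeR's quasi-likelihood test, and a gene was called changed at a Benjamini-Hochberg adjusted p under 0.05 over all genes tested in the class. Levels are given as CPM of the class sum, and fold changes on the log2 scale, positive where P301S was higher, with the standard error (SE). Of 9 classes tested, glia held most calls in this fit of all libraries. Without the Cgas+/+ libraries excitatory neuron-like nuclei held the most (below). In microglia-like nuclei 776 of 8850 genes were higher (8.77%) and 524 lower (5.92%), and in astrocyte-like nuclei 407 of 13112 were higher (3.1%) and 107 lower (0.816%), which is 3.92% either way. In nuclei like oligodendrocyte precursor cells (OPC) 57 of 8826 were higher (0.646%) and 16 lower (0.181%), and in oligodendrocyte-like nuclei 1 of 12268 was higher (0.00815%) and 1 lower (0.00815%), 0.0163% either way. Among neurons, 43 of 13309 genes were higher (0.323%) and 23 lower (0.173%) in dentate granule-like nuclei, 6 of 17044 were higher (0.0352%) and none lower over all excitatory neuron-like nuclei, 3 of 12485 were higher (0.024%) and none lower in CA1-like nuclei, and 1 was higher and 1 lower in each of CA3-like (10831 genes, 0.00923% each way, 0.0185% together) and inhibitory neuron-like nuclei (12604 genes, 0.00793% each way, 0.0159% together). Genes at an unadjusted p under 0.05, which 5% of genes reach by chance, numbered from 503 of 12485 in CA1-like to 2507 of 8850 in microglia-like nuclei, and were fewer than that 5% in CA1- and inhibitory neuron-like nuclei (538 of 12604). DESeq2 called 17 genes lower over all excitatory neuron-like and 2 in CA1-like nuclei, where edgeR called none lower. The classes differ in nuclei, from 4536 CA3-like to 80014 excitatory neuron-like, and in spread, so the number of calls in one class is not comparable with the number in another. Endothelial-like nuclei, 1025 in all, were not tested because 7 libraries held fewer than 20 of them.

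**Figure D1:**
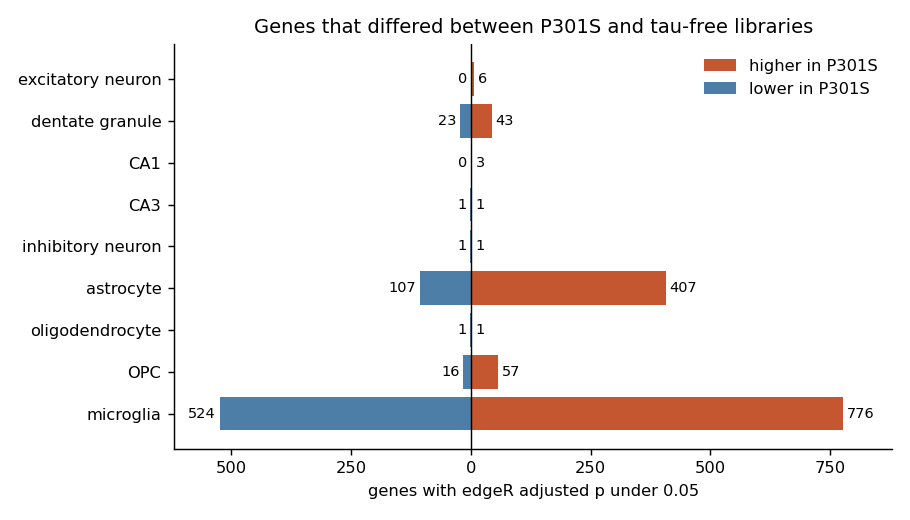
Number of genes called higher or lower in the 18 P301S than in the 9 tau-free libraries, per class, by edgeR's quasi-likelihood test at an adjusted p under 0.05 (horizontal axis, linear, with lower to the left of 0). Microglia-like nuclei hold 776 higher and 524 lower genes, and 5 classes hold 6 calls or fewer in all.

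The tau label was checked first, since the human transgene is not in the count table. The transgene of this line, PS19, is known to sit on chromosome 3 and carries prion gene sequence. Mapt, the mouse tau gene, had 406 to 626 CPM in excitatory neuron-like nuclei of P301S libraries (median 522) and 426 to 558 of tau-free libraries (median 475), and the difference of 0.10 on the log2 scale did not pass (adjusted p = 0.643, edgeR). Gm43049, a long noncoding RNA gene on the minus strand of chromosome 3 (chr3:140692038-140760704, GRCm38), was the gene with the smallest p in all 8 classes in which it was tested. In excitatory neuron-like nuclei it had 3.04 to 20.7 CPM in P301S libraries (median 7.76) and 0 to 0.127 CPM in tau-free libraries (median 0), a log2 difference of 8.76 ± 0.44 SE (adjusted p = 9.69e-13). Every P301S library lay above every tau-free library, so this RNA follows the tau label in all 27 mice. It was also at least 97.9-fold higher in CA3-like, 31.4-fold in OPC-like, 26.9-fold in astrocyte-like and 20.9-fold in oligodendrocyte-like nuclei, taking 3 counts over the tau-free libraries as their upper limit where none was counted. The P301S libraries fell into separate levels by software version of the file header, 14.6 to 20.7 CPM in the 6 with version 3.0.2 and 3.04 to 8.62 CPM in the 12 with version 3.1.0, and the reason was not tested.

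Other genes within 2 Mb of Gm43049 on chromosome 3 were called as well, in both directions. Rap1gds1 (tested in 9 classes), Bmpr1b (8), Stpg2 (7), Kyat3 (7), Gm15688 (4) and Gm15689 (4) were called in none. In excitatory neuron-like nuclei the noncoding genes 4930590L14Rik (chr3:140951876-140953247, plus strand) and Gm32754 (chr3:140904998-140917459, minus strand) were higher, by 6.83 ± 0.39 and 5.45 ± 0.56, again with no overlap between the groups. Unc5c, a netrin receptor of axon guidance (chr3:141465216-141834924, plus strand), fell in inhibitory neuron-like nuclei, from 1067 to 1948 CPM (median 1420) in tau-free libraries to 444 to 1139 CPM (median 847) in P301S libraries, a log2 difference of -0.92 ± 0.14 (adjusted p = 0.00244). It was the only gene called lower in that class, and 15 of 18 P301S libraries lay below every tau-free library. Unc5c was also lower in microglia-like nuclei (-0.88 ± 0.19), and Pdlim5, a scaffold protein of the actin cytoskeleton (chr3:142239590-142395696, minus strand), was lower in microglia-like (-0.56 ± 0.15) and OPC-like nuclei (-0.36 ± 0.09). Tspan5, a tetraspanin (chr3:138742195-138907905, plus strand), was higher in dentate granule-like nuclei (0.44 ± 0.09). Unc5c and Pdlim5 were each called in 2 of 9 classes tested and Tspan5 in 1 of 9. Of all genes tested, 14.7% were called in microglia-like, 3.92% in astrocyte-like, 0.827% in OPC-like and 0.496% in dentate granule-like nuclei. Whether calls gather in this stretch was not tested. The guanylate-binding protein genes Gbp2b, Gbp2, Gbp3, Gbp5 and Gbp7, which interferon induces, lie in the same stretch of chromosome 3 and rose in astrocyte-like nuclei (below), so for them nearness to Gm43049 and interferon induction cannot be told apart. Prn, a gene model over the prion protein locus on chromosome 2 (chr2:131909957-131956130, plus strand), rose in excitatory neuron-like nuclei from 0.729 to 1.36 CPM (median 0.956) to 1.82 to 3.87 CPM (median 3.07), a log2 difference of 1.51 ± 0.14 (adjusted p = 3.8e-07) with no overlap. It rose likewise in dentate granule-like (1.45 ± 0.30) and CA1-like nuclei (1.36 ± 0.24), but did not pass in astrocyte-like (0.25 ± 0.29) or oligodendrocyte-like nuclei (0.84 ± 0.37).

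Microglia-like nuclei held the most calls in the fit of all libraries. Cd83, a surface protein of activated antigen-presenting cells, had 31.75 to 374 CPM in P301S libraries (median 166) and 14.05 to 41.3 CPM in tau-free libraries (median 23.2), a log2 difference of 2.90 ± 0.36 (adjusted p = 0.000194, edgeR). All but 1 of the 18 P301S libraries lay above every tau-free library. Alpk1, a kinase that senses bacterial sugars and acts through TIFA on NF-kB, had 50.8 to 178 CPM (median 101) against 30.03 to 46.9 CPM (median 35.3), and the groups did not overlap (1.63 ± 0.22, adjusted p = 0.0002). Fmnl2, a formin that builds actin filaments, was higher without overlap too, at 381 to 931 CPM (median 701) against 272 to 380 CPM (median 301.1). Gcnt2 (1.20 ± 0.17), Acer3 (0.73 ± 0.11) and the long noncoding RNA gene Pvt1 (0.90 ± 0.13) completed the 6 genes with the smallest p among those higher. Among genes called lower the smallest p belonged to the adhesion molecule Sdk1, at 227 to 500 CPM (median 335) against 463 to 794 CPM (median 614; -0.85 ± 0.13, adjusted p = 0.000322), followed by Gm29927 (-2.42 ± 0.41), the mitochondrial isocitrate dehydrogenase Idh2 (-0.81 ± 0.14), Glis3 (-0.77 ± 0.13), Tmem150c (-1.19 ± 0.22) and Gm31243 (-1.82 ± 0.33).

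Genes of the disease-associated state of microglia, a set defined in amyloid and tau models, were mostly higher. Of 31 listed genes 25 were tested, 19 were called higher and none lower, with a median log2 difference of 2.07 against -0.02 over all genes tested in the class. The share called higher was 76.0%, against 8.77% of all genes of the class. Axl, a receptor for dying cells, ranged from 3.39 to 412 CPM in P301S libraries (median 159) and from 2.35 to 26.8 CPM in tau-free libraries (median 9.37), a difference of 4.29 ± 0.73. Its P301S range was wide: 15 of 18 lay above every tau-free library and the others within their range. The cytokine Csf1, the secreted glycoprotein Lgals3bp and the chemokine Ccl4 rose by 3.93 ± 0.69, 2.39 ± 0.37 and 2.94 ± 0.50. Cst7 (5.32 ± 1.13), a cysteine protease inhibitor, and Apoe (2.37 ± 0.72), the lipid carrier, were looked up after their values were seen and were higher as well. Apoe had 92.9 to 3567 CPM in P301S libraries (median 480) and 126.5 to 306 CPM in tau-free libraries (median 167), so 3 P301S libraries lay below all tau-free ones and 13 above. Trem2, the lipid receptor that microglia need to enter this state and also looked up after its values were seen, had a difference of 0.25 ± 0.20 (adjusted p = 0.444) and was not called, nor were the listed Ctsl (0.71 ± 0.25, adjusted p = 0.0502) and Ccl6 (1.02 ± 0.37, adjusted p = 0.0625).

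Genes of resting microglia were mostly lower. Of 18 listed and tested, 11 were called lower and none higher, 2 had a positive difference, and the median log2 difference was -0.50. The share called lower was 61.1%, against 5.92% of all genes of the class. Siglech, a sialic acid-binding lectin, had 284 to 940 CPM in P301S libraries (median 604) and 876 to 1192 CPM in tau-free libraries (median 991), a difference of -0.85 ± 0.20 (adjusted p = 0.00577). It was below every tau-free library in 17 of 18 P301S libraries. The purinergic receptor P2ry13 (-0.92 ± 0.21), the fractalkine receptor Cx3cr1 (-0.41 ± 0.10) and the secreted Olfml3 (-0.91 ± 0.23) fell too, and so did P2ry12 (-0.49 ± 0.16, adjusted p = 0.0425), which was looked up after its values were seen. Of the 8 markers used to name the class 6 fell, and together they summed to 5800 to 10600 CPM in P301S against 9220 to 11500 CPM in tau-free libraries. Whether this shifted which nuclei were named was not tested.

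Genes of antigen presentation were mostly higher in microglia-like nuclei, where 8.77% of all genes were called higher. For MHC class I, 12 of 14 tested genes of 16 listed were higher and none lower (median 1.39), including the heavy chains H2-K1 (2.52 ± 0.43) and H2-D1 (1.88 ± 0.41) and Nlrc5 (3.30 ± 0.57), the transactivator of the pathway. H2-K1 ranged from 19.1 to 402 CPM (median 132) against 11.1 to 46.9 CPM (median 26.5), with 16 of 18 P301S libraries above every tau-free one. For MHC class II, 6 of the 7 genes were higher (median 2.9). The invariant chain Cd74 had 8.47 to 817 CPM (median 144) against 0 to 45.0 CPM (median 26.0), and Ciita, the class II transactivator, 0 to 114 CPM (median 37.6) against 0 to 12.2 CPM (median 2.35), differences of 3.58 ± 0.84 and 3.52 ± 0.77. H2-DMa was the class II gene that did not pass (0.66 ± 0.41). Of 13 complement genes 8 were tested in this class and 1 was called by edgeR, the C3a receptor gene C3ar1 (1.10 ± 0.20, higher), with 4 at an unadjusted p under 0.05 and 2 called higher by DESeq2. The edgeR call is 12.5% of those tested, against 14.7% of all genes of the class called either way.

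Of the 14 genes listed for sensing DNA through cGAS and STING and its outputs, 11 were tested in microglia-like nuclei, 5 were called higher and 1 lower. These are 45.5% and 9.09% of those tested, against 8.77% and 5.92% of all genes of the class. The kinase Ikbke (3.88 ± 0.85), the hydrolase of cGAMP Enpp1 (1.70 ± 0.41), the interferon receptor chain Ifnar1 (0.69 ± 0.16) and Nfkb1 (0.58 ± 0.10) rose, and Tmem173, which encodes STING, fell by 0.63 on the log2 scale (adjusted p = 0.0193). Mb21d1 itself had 26.35 to 59.5 CPM in P301S (median 44.65) and 15.9 to 39.0 CPM in tau-free libraries (median 33.1), a difference of 0.51 ± 0.18 that did not pass (adjusted p = 0.0554).

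Levels of markers of other cells also moved in microglia-like nuclei, and their part in these results was not tested. Excitatory neuron markers summed to 279 to 619 CPM (median 407) in P301S and 414 to 689 CPM (median 480) in tau-free libraries, with 3 of 8 tested called lower. Oligodendrocyte markers summed to 288 to 655 CPM (median 510) against 272 to 517 CPM (median 322), with Mbp and Prr5l of 7 tested called higher. Markers of border-associated macrophages were lower (108 to 389 against 245 to 616 CPM), 3 of 4 tested. Of 2 tested endothelial markers Flt1 was called higher and Pecam1 lower (sum median 70.5 against 44.7 CPM). The committed precursor marker Tmem163, the 1 tested, was called higher (sum median 48.0 against 18.2 CPM), and of 2 fibroblast markers Bnc2 was called lower (22.6 against 48.3 CPM). With Cgas+/+ libraries alone (6 against 5) no gene of this class was called by edgeR, with 1171 at an unadjusted p under 0.05, and with the 15 libraries of header version 3.1.0 alone (12 against 3) none was called either, with 1353. With the 12 libraries of version 3.0.2 alone (6 against 6) 593 were.

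**Figure D2:**
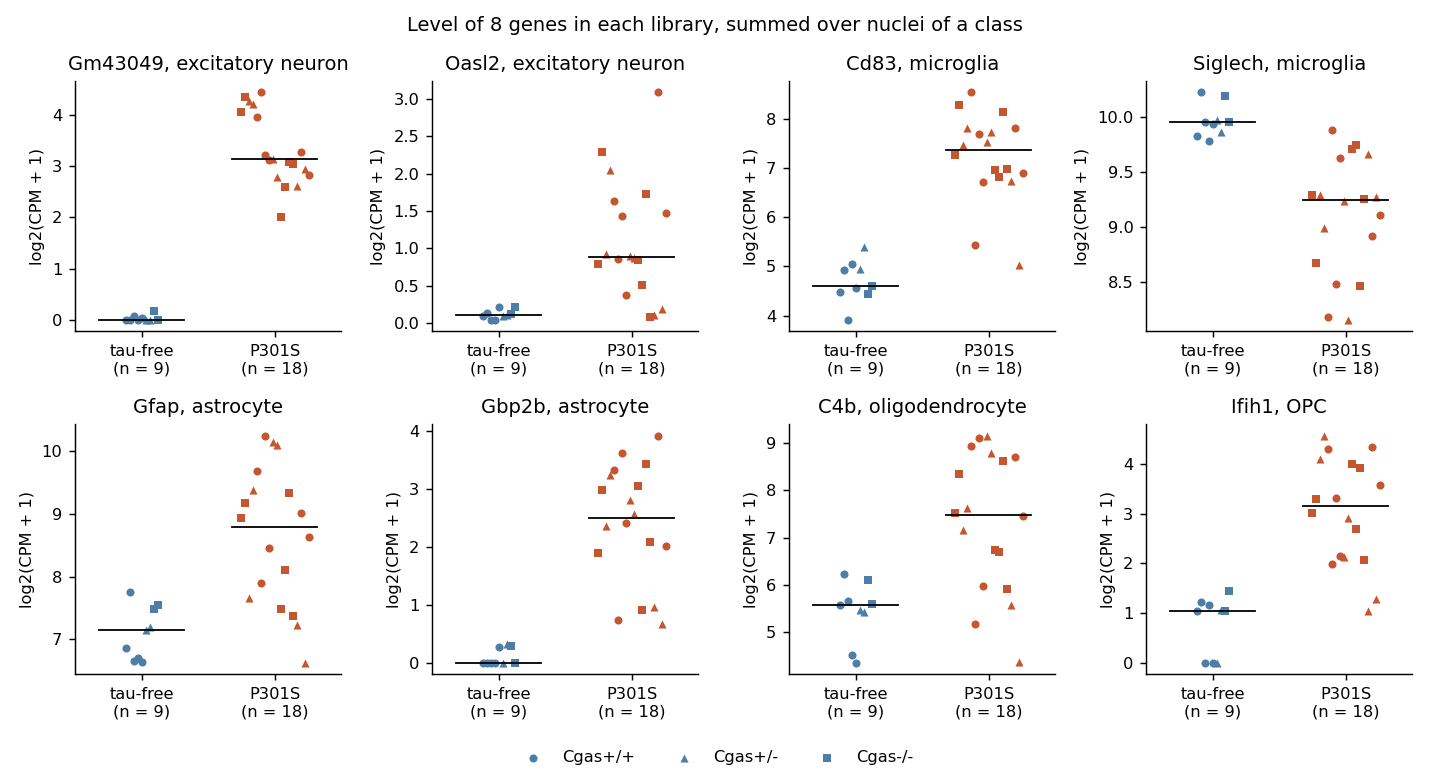
Levels of 8 genes, each in 1 class, as log2(CPM + 1), 1 point per library, with 9 tau-free (blue) and 18 P301S libraries (orange), lines at the medians and marker shapes for the Cgas label. Gm43049 in excitatory neuron-like nuclei separates the groups, whereas the highest P301S level of Gfap in astrocyte-like nuclei is 12.6 times the lowest.

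Astrocyte-like nuclei had higher levels of reactive astrocyte genes. Among all genes of the class 3.1% were called higher and 0.816% lower. Of 28 listed genes of reactive astrocytes 20 were tested, 17 were called higher and none lower, with a median of 2.40 against 0.00 over all genes of the class. The serpin gene Serpina3n had 1.08 to 68.6 CPM in P301S libraries (median 16.2) and 0.375 to 2.37 CPM in tau-free libraries (median 1.06), a difference of 4.16 ± 0.74 (adjusted p = 0.00629, edgeR). The intermediate filament gene Vim rose by 2.86 ± 0.54 and the transcription factor gene Stat3 by 0.90 ± 0.15. Gfap, the filament gene most used to stain reactive astrocytes, was looked up after its values were seen and had 97.1 to 1220 CPM (median 444) against 98.7 to 215 CPM (median 140), a difference of 1.93 ± 0.41 (adjusted p = 0.0116). For Gfap 13 of 18 P301S libraries lay above every tau-free library, 1 lay below and 4 within their range. Tifa, the adaptor that ALPK1 acts on, had 31.3 to 71.4 CPM (median 40.4) against 13.5 to 30.5 CPM (median 21.7), a difference of 0.93 ± 0.14 with no overlap. The call of Alpk1 given above was in another class, microglia-like nuclei, and a link between these calls was not tested. Nearness to Gm43049 was looked at only within 2 Mb, a stretch that holds neither gene, so their position was not examined. Zfp36, which speeds decay of inflammatory mRNAs, rose by 2.47 ± 0.39. Of 4 tested complement genes 3 rose, namely the C1 inhibitor gene Serping1 (2.76 ± 0.57), C3 (4.22 ± 1.08) and C4b (1.06 ± 0.27), while C1qa did not pass (0.56 ± 0.36).

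Gbp2b, after Gm43049 the gene with the smallest p in astrocyte-like nuclei, is induced by interferon and was at 0.597 to 14.1 CPM (median 4.65) in P301S libraries and 0 to 0.251 CPM (median 0) in tau-free libraries, with no overlap (5.55 ± 0.77). Its neighbours on chromosome 3 rose as well: Gbp2 by 3.47 ± 0.63, Gbp3 by 2.39 ± 0.48, Gbp5 by 3.60 ± 0.72 and Gbp7 by 1.48 ± 0.28.

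Some genes of cholesterol synthesis were called lower in astrocyte-like nuclei, where 0.816% of all genes were called lower and 3.1% higher. Of 20 listed cholesterol genes 19 were tested, 3 were called lower and 1 higher, and the median log2 difference was -0.61, with 2 of 19 positive and all 19 at an unadjusted p under 0.05. DESeq2 called 7 lower and 1 higher. Sc5d, a late enzyme of the pathway, had 16.2 to 36.7 CPM in P301S libraries (median 27.9) and 35.5 to 43.3 CPM in tau-free libraries (median 37.5), a difference of -0.61 ± 0.13 with 17 of 18 P301S libraries below every tau-free one. Dhcr7, which makes the last step, fell by 0.61 and Hmgcs1, an early step, by 0.88 on the log2 scale. Abca1, which exports cholesterol, was the member that rose (0.80 ± 0.21). Tm7sf2, a sterol reductase outside the list, was also among the genes lower with the smallest p (-0.91 ± 0.17). Icam5 (-0.85 ± 0.15), Camkv (-0.74 ± 0.14) and Cpne6 (-0.86 ± 0.17), genes known from neurons, were lower too. Excitatory neuron markers in this class summed to 1660 to 2560 CPM (median 1950) in P301S and 1780 to 2200 CPM (median 2030) in tau-free libraries, 1 of 9 tested called lower. Oligodendrocyte markers summed to 107 to 260 CPM (median 200) against 105 to 210 CPM (median 131), with Prr5l of 8 tested called higher, and the part of either in these results was not tested. A list of 19 genes for astrocyte transport and coupling also holds other astrocyte genes. Of the 19, 1 was called by edgeR, 9 had an unadjusted p under 0.05 and DESeq2 called 3 lower, and the median was -0.21. The edgeR call was the growth factor receptor gene Fgfr3 (-0.52 ± 0.13, lower), which is not a gene of transport or coupling. The edgeR call is 5.26% of those tested, against 3.92% of all genes of the class called either way. No astrocyte gene was called with Cgas+/+ libraries alone (1540 at an unadjusted p under 0.05) or with header version 3.1.0 alone (1766), 156 were with version 3.0.2 alone, and 144 with median UMIs per nucleus as a covariate.

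In OPC-like nuclei the gene with the smallest p after Gm43049 was again one that interferon induces. Ifih1, which encodes the RNA sensor MDA5, had 1.05 to 22.7 CPM in P301S libraries (median 7.96) and 0 to 1.72 CPM in tau-free libraries (median 1.07), a difference of 3.55 ± 0.56 (adjusted p = 0.000876, edgeR), and 16 of 18 P301S libraries lay above every tau-free one. Eif2ak2, the RNA-sensing kinase PKR, rose by 1.68 ± 0.28 and the ubiquitin ligase gene Trim25 by 1.11 ± 0.22. C4b, complement component 4, had 11.6 to 160 CPM (median 74.2) against 4.06 to 18.1 CPM (median 10.0), a difference of 2.94 ± 0.49. Genes called lower included the actin-binding Ablim3 (-0.77 ± 0.13, adjusted p = 0.00101), the teneurin gene Tenm1 (-0.37 ± 0.08), the GABA receptor subunit gene Gabrb1 (-0.34 ± 0.07) and Rph3a (-0.76 ± 0.16). Of 18 genes of the OPC lineage 16 were tested and 1 was called, Gpr17, a receptor of cells turning into oligodendrocytes (-0.48 ± 0.12, lower). That is 6.25% of those tested, against 0.827% of all genes of the class called either way. With Cgas+/+ libraries alone 12 genes of this class were called, without them 14, and with header version 3.1.0 alone 6.

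In oligodendrocyte-like nuclei the same kinds of genes stood higher in P301S libraries without passing the test. Of 69 listed interferon response genes 22 were tested, all 22 had a positive log2 difference (median 1.13) and none was called. A gene near 0 in tau-free libraries is tested only where P301S libraries raise its counts, so the signs lean to positive. Of 11 genes of reactive oligodendrocytes all 11 were positive (median 1.75) and none was called. At an unadjusted p under 0.05 stood 19 of the interferon response genes and 9 of the reactive ones, and DESeq2 called 9 and 7. C4b had 19.4 to 573 CPM in P301S libraries (median 179) and 19.2 to 73.7 CPM in tau-free libraries (median 46.3), a difference of 2.59 ± 0.59 with an adjusted p of 0.0804 (edgeR), and 13 of 18 P301S libraries lay above every tau-free one. The cell cycle inhibitor gene Cdkn1a (3.90 ± 0.72, adjusted p = 0.0663) and Serpina3n (3.71 ± 0.83, adjusted p = 0.0804) missed the threshold as narrowly. By DESeq2 186 genes of this class were called, against 2 by edgeR, and without P301S Cgas+/+ replicate 4 edgeR called 54. The 2 called genes were Gm43049 and Pxdn, a peroxidase of the extracellular matrix, at 10.8 to 28.1 CPM (median 16.8) in P301S libraries and 23.2 to 33.3 CPM (median 29.5) in tau-free libraries (-0.88 ± 0.15, adjusted p = 0.0124). The call of Pxdn in oligodendrocyte-like nuclei was lost without sex as a covariate (adjusted p = 0.0512), with median UMIs as a covariate (0.149) and without P301S Cgas+/+ replicate 1 (0.0569) or Cgas+/- replicate 2 (0.0603). Of 15 tested myelin genes and 19 cholesterol genes none was called, with medians of 0.05 and -0.07, 1 and 2 at an unadjusted p under 0.05, and none by DESeq2. For p53 and unfolded protein stress 16 of 17 tested genes were positive (median 0.42) and none was called, with 11 at an unadjusted p under 0.05 and 4 called by DESeq2.

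**Figure D3:**
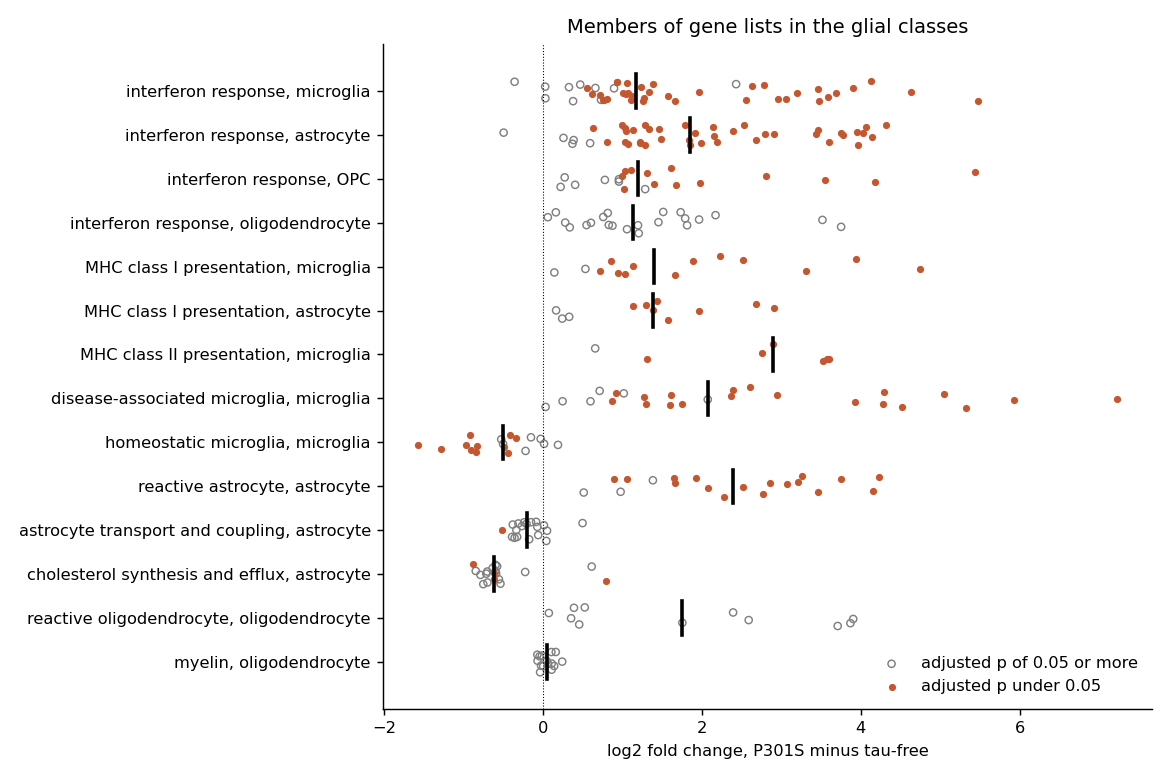
Log2 fold change, P301S minus tau-free (horizontal axis), of each tested member of a gene list in a glial class, filled where the adjusted p was under 0.05, with a bar at the median of the list. The medians of the interferon response genes lie above 1 in microglia-, astrocyte-, OPC- and oligodendrocyte-like nuclei, although no member was called in the last.

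Interferon-induced genes were called higher in several classes. Among all genes tested 8.77% were called higher in microglia-, 3.1% in astrocyte- and 0.646% in OPC-like nuclei. Of 69 listed genes 46 were tested in microglia-like nuclei, of which 36 were higher and none lower (median 1.17). In astrocyte-like nuclei 39 of 44 were higher (median 1.85) and in OPC-like nuclei 13 of 20 (median 1.20), again with none lower. A listed gene near 0 in tau-free libraries passes the filter on low counts only where P301S libraries raise it. These counts and medians over tested members therefore lean toward higher, here and in the other lists. Oasl2, an oligoadenylate synthetase-like protein, was the member called in most classes. It had 3.18 to 138.5 CPM in P301S libraries (median 53.6) and 0 to 22.3 CPM in tau-free libraries (median 4.71) in microglia-like nuclei (3.59 ± 0.69), and 0.299 to 93.4 CPM (median 23.5) against 0.618 to 5.41 CPM (median 1.06) in astrocyte-like nuclei (4.03 ± 0.72). In OPC-like nuclei it rose by 5.44 ± 1.18. The groups overlapped in each of these classes.

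Oasl2 was also called in excitatory neuron-like nuclei, at 0.0558 to 7.51 CPM (median 0.842) against 0.0288 to 0.159 CPM (median 0.0808), a difference of 4.67 ± 0.76 (adjusted p = 0.00589), with 15 of 18 P301S libraries above every tau-free one. C1qa, a complement gene that microglia make, was called there too (1.66 ± 0.27, adjusted p = 0.00571). Microglial markers in that class summed to 21.6 to 42.6 CPM (median 31.6) in P301S and 23.7 to 43.8 CPM (median 33.7) in tau-free libraries, with none of 7 tested called. Of these 8 markers 6 fell in microglia-like nuclei, so their sum need not follow the amount of microglial RNA. The part of RNA from other cells in the calls of Oasl2 and C1qa was not tested.

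Genes called in at least 3 of the 6 main classes tested, that is excitatory neuron-, inhibitory neuron-, astrocyte-, oligodendrocyte-, OPC- and microglia-like nuclei, numbered 16 and all were higher. By comparison 1592 genes were called in 1 of these classes only and 127 in 2. Besides Gm43049 and Oasl2 the 16 included the antiviral sensors Ifih1, Ddx58 and Ddx60, the effectors Eif2ak2, Parp9, Rnf213, Irgm1, Trim25 and Usp18, the signal transducer Stat2, the heavy chain gene H2-K1, the cytokine gene Csf1 and Pvt1, each called in astrocyte-, OPC- and microglia-like nuclei. Ddx60 rose by 1.06 ± 0.28 in microglia-like, 2.80 ± 0.53 in astrocyte-like and 2.80 ± 0.60 in OPC-like nuclei, and whether classes differed was not tested.

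The promoters of these shared genes are shown because the interferon-stimulated response element, a site through which interferons induce genes, has a recognisable core. The sequences run from 250 bases before to 50 bases after the start of the gene as RefSeq places it (GRCm38.p6), 5′ to 3′ on the strand of the gene, with each match to GAAA, any 2 bases and GAAA, on either strand, in capitals. Ddx60 lies at chr8:61927837-61928136 on the plus strand, Irgm1 at chr11:48871371-48871670 and Ifih1 at chr2:62646206-62646505 on the minus strand, and Oasl2 at chr5:114896684-114896983 on the plus strand.
Ddx60: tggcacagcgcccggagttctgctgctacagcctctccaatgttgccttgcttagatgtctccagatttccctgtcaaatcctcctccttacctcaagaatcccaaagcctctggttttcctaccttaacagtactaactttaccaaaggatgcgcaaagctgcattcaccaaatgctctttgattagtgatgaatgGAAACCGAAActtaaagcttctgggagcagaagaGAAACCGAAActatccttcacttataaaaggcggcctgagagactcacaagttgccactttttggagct
Irgm1: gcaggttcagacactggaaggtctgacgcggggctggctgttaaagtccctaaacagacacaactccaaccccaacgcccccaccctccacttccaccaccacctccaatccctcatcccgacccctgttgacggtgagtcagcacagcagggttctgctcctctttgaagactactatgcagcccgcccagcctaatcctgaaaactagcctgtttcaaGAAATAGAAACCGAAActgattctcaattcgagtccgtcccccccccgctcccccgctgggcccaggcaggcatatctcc
Ifih1: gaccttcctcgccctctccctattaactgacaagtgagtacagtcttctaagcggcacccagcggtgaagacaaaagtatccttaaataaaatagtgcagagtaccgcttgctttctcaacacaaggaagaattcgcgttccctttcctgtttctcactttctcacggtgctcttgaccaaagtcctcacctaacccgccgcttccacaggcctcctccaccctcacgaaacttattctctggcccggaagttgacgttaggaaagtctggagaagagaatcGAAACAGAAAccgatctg
Oasl2: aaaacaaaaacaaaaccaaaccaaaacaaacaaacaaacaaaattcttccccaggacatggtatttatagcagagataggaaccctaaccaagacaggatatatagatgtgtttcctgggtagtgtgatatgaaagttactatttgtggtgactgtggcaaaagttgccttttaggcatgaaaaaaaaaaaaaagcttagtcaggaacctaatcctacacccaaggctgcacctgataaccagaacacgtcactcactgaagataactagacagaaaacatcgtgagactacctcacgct
Ddx60 holds 2 matches within 60 bases of its start, Irgm1 2 that overlap each other, Ifih1 1 just after its start and Oasl2 none. Of 27025 gene symbols with a RefSeq promoter, 1079 (3.99%) hold a match, against 31 of the 54 interferon list genes found there (57.4%) and 6 of 11 matched genes of those called in 3 or more classes (54.5%). The list was made of known interferon-induced genes, so the share describes the list and not P301S. The 11 genes were picked by their calls in these data, and all but Csf1 and H2-K1 are on that list. Their share is therefore no separate result. A match is a description of letters and the absence of one says only that this window does not hold them.

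Few neuronal genes were called in the fit of all libraries besides those near Gm43049. In dentate granule-like nuclei, tested in 17 P301S and 9 tau-free libraries, Trpc5, a calcium-permeable channel, had 190 to 328 CPM in P301S libraries (median 258) and 140 to 205 CPM in tau-free libraries (median 195), a difference of 0.60 ± 0.08 (adjusted p = 0.000372, edgeR). It was above every tau-free library in 16 of 17. The metalloproteinase gene Adamts6 (1.63 ± 0.24), the protocadherin gene Fat3 (0.69 ± 0.11), Hectd2 (0.89 ± 0.14) and Tmtc1 (0.41 ± 0.08) rose as well. Nos1, which makes nitric oxide, fell from 29.4 to 49.8 CPM (median 37.0) to 12.4 to 36.2 CPM (median 26.0), a difference of -0.69 ± 0.12 (adjusted p = 0.0112), and it was the single called member of the neuropeptide and calcium-binding list in any neuronal class. It is 16.7% of the 6 members tested in dentate granule-like nuclei, where 0.173% of all genes were called lower. Tspan15 (-0.71 ± 0.13), Bicc1 (-0.76 ± 0.15), St3gal1 (-0.68 ± 0.14), the matrix protein gene Smoc1 (-1.83 ± 0.39) and the alarmin gene Il33 (-1.10 ± 0.24) were also lower. The number of calls in this class, 66, depended on single libraries: it became 373 when P301S Cgas+/+ replicate 2 was left out and 12 when replicate 6 of that group was. It also fell with header version as a block and with males only (counts below).

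In CA1-like nuclei H2-D1 was the call besides Gm43049 and Prn, at 0 to 4.77 CPM (median 2.39) against 0 to 1.20 CPM (median 0.627), a difference of 2.01 ± 0.36 (adjusted p = 0.022). H2-D1 was also called higher in microglia- and astrocyte-like nuclei, and the part of RNA from other cells in its CA1 call was not tested. The calls of H2-D1 in CA1-like nuclei and of Prn in CA1-like nuclei were each lost in 12 of 41 alternatives, for example with equal weight of the Cgas genotypes (adjusted p = 0.0676 each), with median UMIs as a covariate (0.0616 and 0.0705) and without P301S Cgas-/- replicate 1 (0.0552 each) or 5 (0.0562 each). In CA3-like nuclei, tested in 13 P301S libraries that held at least 20 of them, Pxdn fell by 0.73 on the log2 scale (adjusted p = 0.0391), from 74.5 to 127 CPM (median 112) to 40.9 to 95.8 CPM (median 59.6). The call of Pxdn in CA3-like nuclei was lost in 24 of 36 alternatives run, among them males only (adjusted p = 0.135), equal weight of the Cgas genotypes (0.238) and doublets kept (0.125). None of the tested members of the lists for ionotropic glutamate receptors, GABA receptors and synthesis, tau and tau kinases, MEF2 factors with class IIa histone deacetylases, p53 and unfolded protein stress, or genes induced by neuronal activity was called by edgeR in any of the 5 neuronal classes. Between 0 and 5 members of a list had an unadjusted p under 0.05 in a class, and DESeq2 called 1 member in all, a GABA list gene in dentate granule-like nuclei. Of 26 activity-induced genes in excitatory neuron-like nuclei 22 had a positive difference (median 0.36) and none passed, for example Dusp1 in excitatory neuron-like nuclei at 0.93 ± 0.48 and Vgf in excitatory neuron-like nuclei at 0.41 ± 0.23. With median UMIs as a covariate both were called higher (adjusted p = 0.0309 and 0.0351), and with header version 3.1.0 alone both differences were negative (-0.72 and -0.42) and not called. Mef2c in excitatory neuron-like nuclei had 189 to 1010 CPM in P301S libraries (median 466) and 199 to 420 CPM in tau-free libraries (median 295), a difference of 0.51 ± 0.24 (adjusted p = 0.532), and was called higher with equal weight of the Cgas genotypes (0.0376), males only (0.0283) or no Cgas+/+ libraries (0.0046). Over all excitatory neuron-like nuclei the count of calls rose from 6 to 2004 without the Cgas+/+ libraries and to 1367 with males only. The 3 hippocampal subtypes made up 4.30% to 93.3% of these nuclei over P301S and 18.8% to 91.4% over tau-free libraries, so the regional content varied. Their mean share differed, P301S minus tau-free, by 11.8 points within Cgas+/+, -32.2 within Cgas+/- and -58.2 within Cgas-/-. The part of regional content in these calls, that of Mef2c among them, was not tested.

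The tau difference was next compared between Cgas genotypes, since pooling would hide an opposite response. No gene in any of the 9 classes had a tau difference that depended on Cgas genotype at an adjusted p under 0.05 by edgeR's test of the interaction. At an unadjusted p under 0.05, which 5% of genes reach by chance, stood from 133 of 12485 in CA1-like to 2322 of 17044 in excitatory neuron-like nuclei. DESeq2 gave such genes in 3 classes, 458 in excitatory neuron-like nuclei, 16 among inhibitory neuron-like and 2 among astrocyte-like ones. Without the filter on low counts edgeR gave 172 in CA3-, 44 in microglia- and 4 in inhibitory neuron-like nuclei. Cd83 in microglia-like nuclei was higher by 3.02 within Cgas+/+, 2.33 within Cgas+/- and 3.24 within Cgas-/-, and Siglech lower by -0.82, -0.83 and -0.93. Gfap in astrocyte-like nuclei was higher by 2.28, 2.12 and 1.19 in the same order. These 3 genes were called in the pooled fit, which favours genes of the same sign in each genotype. Of its calls, 1292 of 1300 in microglia-like and 514 of 514 in astrocyte-like nuclei had the same sign in all 3 genotypes. Such genes cannot show an opposite response. With 2 tau-free libraries in each of Cgas+/- and Cgas-/-, a difference between genotypes was hard to detect, so these values do not show that the genotypes responded alike.

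Levels of 3 glial genes were compared from mouse to mouse. Over the 18 P301S libraries the log2 level of Gfap in astrocyte-like nuclei correlated with that of C4b in oligodendrocyte-like nuclei (Pearson r = 0.91, permutation p = 1e-05, the smallest that 100000 permutations can give; Spearman rho = 0.93), and r was 0.86 without the 2 libraries farthest from the median of Gfap. C4b correlated with Cd83 in microglia-like nuclei (r = 0.88, permutation p = 1e-05; rho = 0.83, permutation p = 8e-05; r = 0.81 without 2) and Gfap with Cd83 (r = 0.73, permutation p = 0.00029; rho = 0.74, permutation p = 0.00057; r = 0.62 without 2). Within header version 3.0.2 (n = 6) the 3 values of r were 0.78, 0.98 and 0.72, and within 3.1.0 (n = 12) they were 0.94, 0.89 and 0.79. These were 3 of 6 pairs, chosen after values were seen, so their p values are no independent support, and C4b was not a called gene of its class. Adjusted over the 6 pairs by the Benjamini-Hochberg method the permutation p values were 3e-05, 3e-05 and 0.00058 for r. Gfap did not correlate detectably with the share of CA3-like (r = 0.08, rho = 0.26), dentate granule-like (r = -0.18, rho = -0.24) or oligodendrocyte-like nuclei (r = -0.08, rho = -0.20), with permutation p values adjusted over the pairs of 0.415 to 0.759. Within header version 3.0.2 (n = 6) these r were 0.58, 0.08 and 0.72, and within 3.1.0 (n = 12) 0.03, -0.25 and -0.16.

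P301S libraries were spread more widely than tau-free libraries in these measures. The standard deviation of log2 Gfap was 1.10 over P301S and 0.419 over tau-free libraries, of C4b 1.48 and 0.635, and of Cd83 0.908 and 0.432. The highest P301S library exceeded the lowest 12.6-fold for Gfap, 29.5-fold for C4b and 11.8-fold for Cd83. In 11 of the 18 P301S libraries all 3 genes lay above every tau-free library, and in P301S Cgas+/- replicate 6 none did. P301S Cgas-/- replicate 6 and P301S Cgas+/- replicate 5 had 2 of the 3 at or under the highest tau-free level. These 2 and P301S Cgas+/- replicate 6 were all female with header version 3.1.0. Medians in male and female P301S libraries were 580 and 273 CPM for Gfap, 197 and 102 for C4b and 185 and 125 for Cd83. P301S libraries came from 9 males and 9 females, tau-free libraries from 7 and 2. The difference in spread, and the part of sex and header version in it, was not tested.

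**Figure D4:**
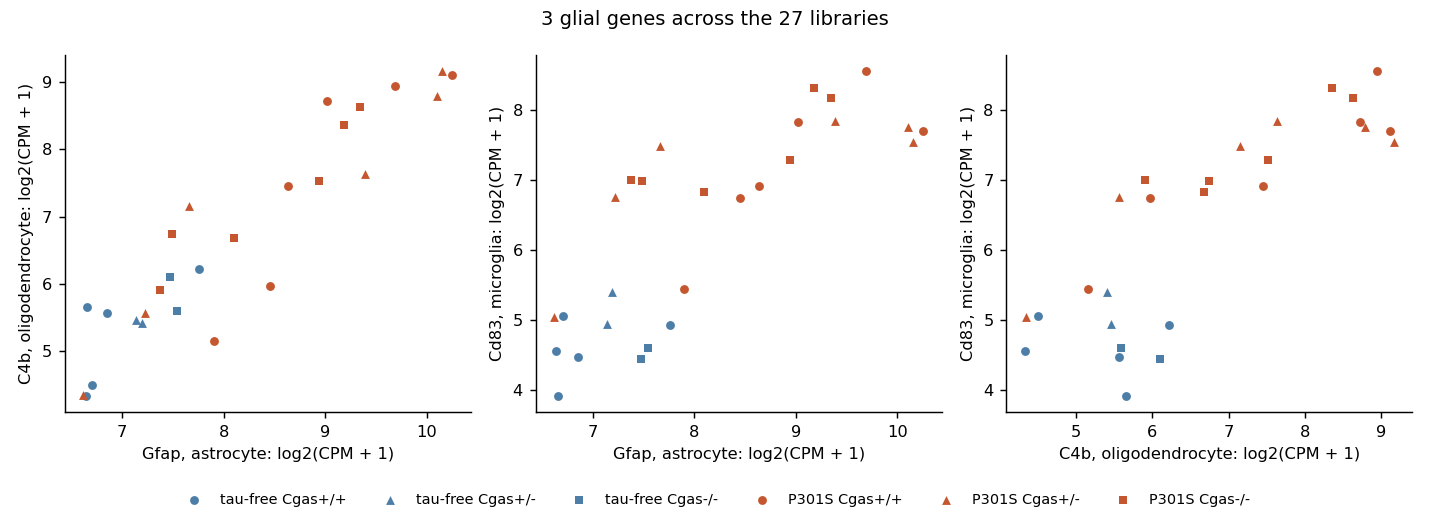
Levels as log2(CPM + 1), 1 point per library, of C4b in oligodendrocyte-like against Gfap in astrocyte-like nuclei (left), and of Cd83 in microglia-like nuclei against Gfap (middle) and C4b (right), with marker shapes for the Cgas label. Over the 18 P301S libraries (orange) r was 0.91, 0.73 and 0.88, and 4 of them lie within the tau-free (blue) range of Gfap.

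Shares of classes among kept nuclei differed for 3 of 18 classes by an exact permutation test of tau labels within Cgas genotype (362208 permutations, two-sided, adjusted over the classes). CA3-like nuclei made up 1.19% ± 1.47 (SD, n = 18) of nuclei in P301S and 3.85% ± 1.97 (n = 9) in tau-free libraries, a mean within-genotype difference of -2.46 percentage points (exact permutation, adjusted p = 0.0342). The P301S shares ran from 0.0124% to 5.85% (median 0.586%) and the tau-free shares from 0.421% to 6.50% (median 3.98%), so the groups overlapped. Astrocyte-like nuclei made up 11.7% ± 3.53 against 15.9% ± 3.59 (-4.67 points, exact permutation, adjusted p = 0.0342) and oligodendrocyte-like nuclei 24.7% ± 4.42 against 18.1% ± 5.71 (higher by 6.38 points, exact permutation, adjusted p = 0.0342). With the 12 libraries of header version 3.0.2 alone (6 against 6) the oligodendrocyte difference was 1.78 points (exact permutation, adjusted p = 0.6), the CA3 difference -3.76 (0.0833) and the astrocyte difference -3.73 (0.15). Microglia-like nuclei made up 5.94% ± 2.01 against 4.85% ± 1.80 and dentate granule-like nuclei 8.05% ± 5.38 against 13.6% ± 5.99, which did not pass (exact permutation, adjusted p = 0.34 and 0.12). Unnamed nuclei, which count in every denominator, made up 8.84% ± 12.5 in P301S against 2.955% ± 1.11 in tau-free libraries (exact permutation, adjusted p = 0.224). In 10 of the 18 P301S libraries their share was above every tau-free one. A share falls when other classes grow, so none of these values is a number of cells in the tissue. The upper limit on detected genes removed 3.17% to 22.2% of barcodes per P301S library and 2.455% to 14.4% per tau-free library. The mean within-genotype difference in this loss was 1.30 points (exact permutation, adjusted p = 0.547 over 5 quality measures). Nuclei kept in the CA3-like cluster had a median of 12602 UMIs, the highest of the named clusters. The part of this limit in the shares, that of CA3-like nuclei among them, was not tested.

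Ratios within a part of the nuclei were computed after the shares were seen, and those of astrocyte- and oligodendrocyte-like nuclei within the glia restate the differences above and are not given. OPC-like nuclei, whose share of all kept nuclei did not pass (exact permutation, adjusted p = 0.0672), made up 6.46% ± 1.17 of the glia in P301S and 8.80% ± 1.66 in tau-free libraries (-2.115 points, exact permutation, adjusted p = 0.00328 over 8 ratios). Oligodendrocyte-like nuclei are in the same denominator, and the OPC ratio falls where they take a larger part. It is therefore not separate from the differences above. Taken as a share of CA1-, CA3- and dentate granule-like nuclei together, CA3-like nuclei differed by -2.32 points and did not pass (exact permutation, adjusted p = 0.682 over 8 ratios). The medians of this ratio were 5.855% in P301S and 14.3% in tau-free libraries, with 8 of 18 P301S libraries below every tau-free library and 2 above, at 45.1% (P301S Cgas+/- replicate 1) and 49.6% (P301S Cgas+/+ replicate 1). The 3 share differences adjusted to p above 0.05 with sex added to the strata (0.0903, 0.0903 and 0.0931) and without Cgas-/- replicate 1 (0.126 each).

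**Figure D5:**
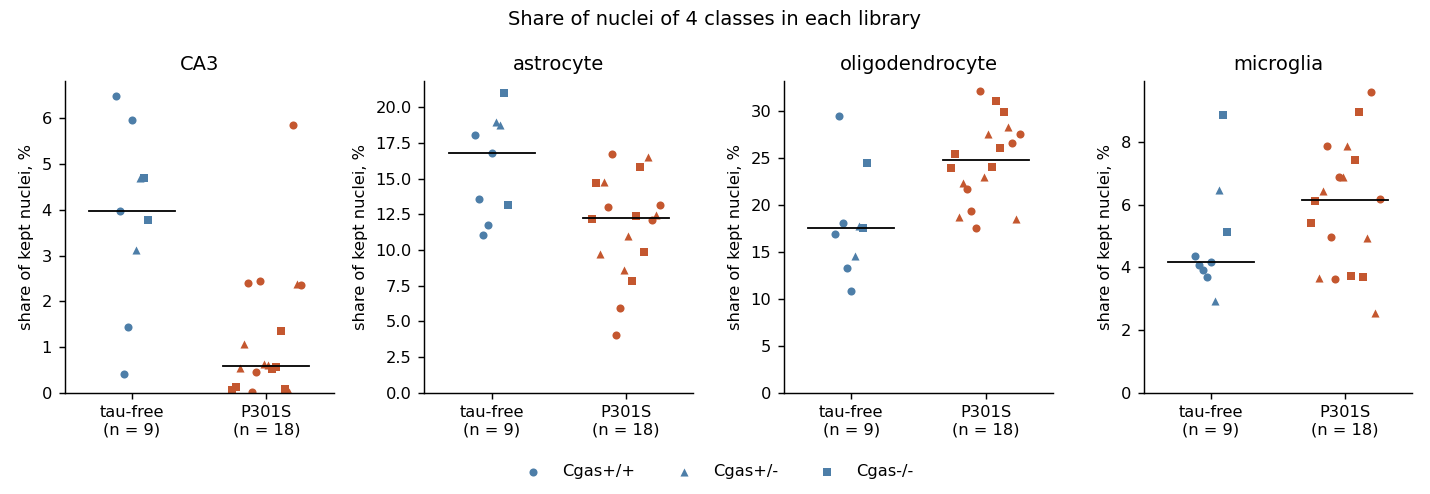
Share of kept nuclei (percent) of 4 classes, 1 point per library, with 9 tau-free (blue) and 18 P301S libraries (orange), lines at the medians and marker shapes for the Cgas label. CA3-like and astrocyte-like shares are lower and oligodendrocyte-like shares higher in P301S libraries, with overlap in each.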

How the data were processed

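The deposited files hold, per library, a matrix of raw UMI counts over 31053 gene IDs, made by the authors with 10x Genomics 3′ libraries aligned to mm10 with introns counted (Cell Ranger 3.1.0 per the labels, while the file headers name 3.0.2 or 3.1.0). The filter kept barcodes of 200 to 4000 genes with no more than 5% mitochondrial UMIs. Scrublet's highest scores were removed as doublets, at 0.8% per 1000 barcodes. Nuclei were clustered with scanpy 1.11.5 (2000 variable genes, 30 components, 15 neighbours, Leiden resolution 1), and 38 of 60 clusters were named from fixed markers. The naming thresholds were chosen after clusters had been seen.

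Counts were summed per library and class, leaving out libraries with fewer than 20 nuclei of it, and tested with edgeR 4.0.16 (R 4.3.3): TMM factors, filterByExpr, a robust quasi-likelihood fit, with Cgas genotype, sex and tau as terms. P values were adjusted by the Benjamini-Hochberg method. The study tested nuclei, but nuclei of 1 mouse are not replicates, so libraries were tested. Replicate numbers follow accession order and name libraries only. DESeq2 1.42.0 was an alternative. On simulated counts for microglia-like nuclei (8850 genes) the edgeR step called 41.8% of genes changed 1.5-fold, 83.6% of those changed 2-fold and 89.4% of those changed 4-fold, with 10 false calls. Intervals and limits from counts cover counting error only.

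Members and gene lists were chosen with earlier results of these data known. Genes named are, per class, up to 6 called genes each way with the smallest p, up to 4 called and 2 uncalled members of each list with the smallest p, genes called in 3 or more classes, called genes within 2 Mb of Gm43049, and Mb21d1, Tmem173, Mapt, Prnp and Prn where tested (Prnp was not). Genes looked up beyond this rule are marked, and some genes that the rule names are not reported here. Clec7a was not analysed here.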

Additional observations from a re-analysis of the deposited data

Results flagged for a closer look

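In 34 measures over the 9 tau-free libraries the highest or lowest library was checked for standing apart from the others (Dixon's 95% limit, which chance passes in about 1 of 20 groups), and 3 did. The share of excitatory neuron-like nuclei without a subtype was 3.72% in Cgas+/+ replicate 5, against 1.49% in the next library and a median of 0.209%. The share of fibroblast-like nuclei was 3.22% in the same library, against 0.66% in the next and a median of 0.0708%. The level of Gm43049 in excitatory neuron-like nuclei was 0.127 CPM in Cgas-/- replicate 1, against 0.0575 CPM in the next and a median of 0, which is below the lowest P301S library at 3.04 CPM.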

How the results depend on the processing

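Counts are genes called at an adjusted p under 0.05 by edgeR, against 6 in excitatory neuron-, 66 in dentate granule-, 3 in CA1-, 2 in CA3-, 2 in inhibitory neuron-, 514 in astrocyte-, 2 in oligodendrocyte-, 73 in OPC- and 1300 in microglia-like nuclei, and only counts that moved by more than 1.5 times are given. No named gene that was called reversed under any alternative run, while named genes not called in excitatory neuron-like nuclei gained a call 42 times over 5 settings. Apart from leaving out single libraries, named calls were lost 163 times in astrocyte-, 139 in microglia-, 107 in OPC- and 64 in dentate granule-like nuclei. In each other class they were lost 13 times or fewer. The cause of these changes was not tested, and settings that leave out libraries also hold fewer samples. Giving the 3 Cgas genotypes equal weight gave 551 in excitatory neuron-, 1 in CA1-, 1 in CA3-, 287 in astrocyte-, 20 in oligodendrocyte- and 34 in OPC-like nuclei. Without sex as a covariate there were 21 in excitatory neuron-, 5 in CA1- and 1 in oligodendrocyte-like nuclei. With the median UMI count per nucleus as a covariate there were 618 in excitatory neuron-, 33 in dentate granule-, 10 in inhibitory neuron-, 144 in astrocyte-, 1 in oligodendrocyte-, 30 in OPC- and 777 in microglia-like nuclei. Without TMM factors there were 111 in dentate granule-like nuclei, and in CA1-like nuclei 3 higher and 1 lower in place of 3 and 0. Without the filter on low counts there were 6 in CA1-, 107 in CA3- and 282 in OPC-like nuclei. With header version as a block there were 17 in dentate granule-, 7 in CA1-, 4 in CA3- and 292 in astrocyte-like nuclei. With males only there were 1367 in excitatory neuron-, 7 in dentate granule-, 5 in CA1-, 1 in CA3-, 74 in inhibitory neuron- and 23 in oligodendrocyte-like nuclei. With Cgas+/+ only there were 2 in excitatory neuron-, 1 in dentate granule-, 1 in CA1-, 1 in CA3-, 1 in inhibitory neuron- and 12 in OPC-like nuclei and 0 in astrocyte-, oligodendrocyte- and microglia-like nuclei (1540, 748 and 1171 at an unadjusted p under 0.05). Without Cgas+/+ there were 2004 in excitatory neuron-, 299 in dentate granule-, 0 in CA3- (551 unadjusted), 104 in inhibitory neuron-, 106 in astrocyte-, 71 in oligodendrocyte-, 14 in OPC- and 808 in microglia-like nuclei. With doublets kept there was 1 in CA3-like nuclei. By DESeq2 there were 60 in excitatory neuron-, 249 in dentate granule-, 12 in CA1-, 11 in CA3-, 812 in astrocyte- and 186 in oligodendrocyte-like nuclei, and it called 513 of the 514 astrocyte and 1258 of the 1300 microglia genes.

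The 3 settings of this paragraph were chosen after seeing the data. With header version 3.0.2 only there were 589 in excitatory neuron-, 1 in dentate granule-, 1 in CA3-, 229 in inhibitory neuron-, 156 in astrocyte-, 15 in oligodendrocyte-, 48 in OPC- and 593 in microglia-like nuclei. With 3.1.0 only there were 3 in excitatory neuron-, 6 in dentate granule-, 1 in CA1- and 6 in OPC-like nuclei and 0 in CA3-, astrocyte-, oligodendrocyte- and microglia-like nuclei (227, 1766, 1364 and 1353 unadjusted). Without the libraries of over 20% unnamed nuclei there were 38 in dentate granule- and 1 in CA3-like nuclei.

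Leaving out 1 library at a time gave 6 to 34 calls in excitatory neuron-, 12 to 373 in dentate granule-, 1 to 5 in CA1-, 1 to 8 in CA3-, 2 to 5 in inhibitory neuron-, 281 to 941 in astrocyte-, 1 to 54 in oligodendrocyte-, 31 to 129 in OPC- and 970 to 1555 in microglia-like nuclei. The libraries whose removal moved a count by more than 1.5 times were these. For excitatory neuron-like nuclei it became 10 without P301S Cgas+/+ replicate 6, 14 without Cgas+/+ replicate 3, 16 without P301S Cgas+/+ replicate 5, 34 without P301S Cgas+/+ replicate 2. For dentate granule-like nuclei it became 12 without P301S Cgas+/+ replicate 6, 16 without Cgas+/+ replicate 3, 23 without Cgas-/- replicate 2, 25 without Cgas+/- replicate 1, 29 without P301S Cgas+/- replicate 3 or P301S Cgas-/- replicate 5, 31 without Cgas+/+ replicate 5, 32 without Cgas-/- replicate 1, 40 without P301S Cgas+/- replicate 2, 43 without Cgas+/+ replicate 1, 198 without Cgas+/+ replicate 2, 373 without P301S Cgas+/+ replicate 2. For CA1-like nuclei it became 1 without P301S Cgas-/- replicate 1 or P301S Cgas-/- replicate 5, 5 without P301S Cgas+/+ replicate 2 or Cgas+/+ replicate 4 or P301S Cgas-/- replicate 6 or P301S Cgas+/+ replicate 5 or Cgas+/- replicate 1 or Cgas+/- replicate 2. For CA3-like nuclei it became 1 without Cgas+/+ replicate 1 or P301S Cgas+/- replicate 1 or P301S Cgas+/- replicate 2 or P301S Cgas+/+ replicate 1 or P301S Cgas+/- replicate 3 or P301S Cgas+/- replicate 4 or P301S Cgas-/- replicate 5 or Cgas+/+ replicate 5 or P301S Cgas+/+ replicate 5 or P301S Cgas+/- replicate 6 or Cgas+/- replicate 1 or Cgas+/- replicate 2, 8 without P301S Cgas+/+ replicate 6. For inhibitory neuron-like nuclei it became 5 without Cgas+/+ replicate 3. For astrocyte-like nuclei it became 281 without P301S Cgas-/- replicate 5, 285 without Cgas+/- replicate 2, 297 without Cgas+/+ replicate 4, 302 without Cgas+/- replicate 1, 304 without Cgas-/- replicate 1, 310 without Cgas+/+ replicate 5, 315 without P301S Cgas+/- replicate 3, 334 without Cgas+/+ replicate 1, 337 without P301S Cgas+/+ replicate 5, 941 without P301S Cgas+/+ replicate 2. For oligodendrocyte-like nuclei it became 1 without P301S Cgas+/+ replicate 1 or Cgas+/- replicate 2, 4 without P301S Cgas+/- replicate 5, 5 without P301S Cgas-/- replicate 1 or Cgas+/+ replicate 3, 16 without P301S Cgas+/+ replicate 2, 54 without P301S Cgas+/+ replicate 4. For OPC-like nuclei it became 31 without P301S Cgas+/+ replicate 1, 35 without Cgas+/+ replicate 1 or Cgas-/- replicate 2, 36 without Cgas+/+ replicate 3, 45 without P301S Cgas-/- replicate 5 or Cgas+/+ replicate 5 or Cgas-/- replicate 1, 47 without Cgas+/- replicate 2, 48 without Cgas+/- replicate 1, 129 without P301S Cgas+/+ replicate 2.

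The test of the difference between Cgas genotypes gave 458, 16 and 2 genes in excitatory neuron-, inhibitory neuron- and astrocyte-like nuclei by DESeq2 and 172, 4 and 44 in CA3-, inhibitory neuron- and microglia-like nuclei without the filter on low counts, against 0 in each by edgeR. Tau effects fitted within the libraries of 1 Cgas genotype alone gave 27 and 3 calls in dentate granule-like nuclei (Cgas+/- and Cgas-/-) and, for Cgas+/+ and Cgas-/-, 0 and 59 in astrocyte-, 12 and 15 in OPC- and 0 and 786 in microglia-like nuclei. In the fit of all libraries these counts were 1 and 1, 1 and 0, 1 and 0, and 28 and 0, so which genotype held the calls depended on the fit.

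Of the share differences, strata of Cgas genotype and sex gave -2.30 points for CA3-like, -4.00 for astrocyte-like and 5.59 for oligodendrocyte-like nuclei (exact permutation, adjusted p = 0.0903, 0.0903 and 0.0931). Without strata OPC-like nuclei passed (-0.73 points, exact permutation, adjusted p = 0.0484). With doublets kept oligodendrocyte-like nuclei differed by 6.04 points (exact permutation, adjusted p = 0.0614). Header version 3.0.2 alone gave -3.76, -3.73 and 1.78 points for CA3-, astrocyte- and oligodendrocyte-like nuclei (exact permutation, adjusted p = 0.0833, 0.15 and 0.6), and leaving out the libraries of over 20% unnamed nuclei -2.31 and -3.94 points for CA3- and astrocyte-like nuclei (exact permutation, adjusted p = 0.0563 and 0.0664). Leaving out 1 library at a time the difference ranged from -2.88 to -2.21 points for CA3-, -5.30 to -3.98 for astrocyte-, 5.61 to 7.68 for oligodendrocyte-, -0.80 to -0.53 for OPC-, -3.21 to -1.70 for CA1- and -6.60 to -4.74 for dentate granule-like nuclei, with the first 3 losing their call without Cgas+/+ replicate 1 or 5, Cgas+/- replicate 1 or 2 or Cgas-/- replicate 1 (oligodendrocyte-like also without Cgas+/+ replicate 4 and P301S Cgas+/+ replicate 5). Without P301S Cgas+/+ replicate 4 the CA1-, OPC- and dentate granule-like shares passed, and OPC-like also without Cgas+/+ replicate 2, P301S Cgas-/- replicate 4, P301S Cgas+/- replicate 5 or P301S Cgas+/+ replicate 6. No paired analysis was possible because the labels give no shared replicate numbers. How far depth limited the calls was not tested. In counts simulated from the excitatory neuron-like sums over 17044 genes, 44.8% of genes changed 1.5-fold and 97.0% of those changed 4-fold were recovered, with 13 false calls.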

Other observations

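Outside microglia-like nuclei, MHC class I genes were called higher mainly in astrocyte-like nuclei. Among all genes tested 3.1% were called higher in astrocyte- and 0.646% in OPC-like nuclei. In astrocyte-like nuclei 8 of 11 tested genes were called higher and none lower (median log2 difference 1.38), among them Nlrc5 (2.68 ± 0.49 SE), H2-K1 (1.30 ± 0.28), H2-Q4 (2.91 ± 0.63) and the peptide transporter gene Tap1 (1.44 ± 0.32). H2-K1 had 8.27 to 60.8 CPM in P301S libraries (median 30.3) and 7.56 to 23.1 CPM in tau-free libraries (median 10.3), with 11 of 18 P301S libraries above every tau-free one. In OPC-like nuclei 1 of 6 was called, H2-K1 (1.90 ± 0.46, adjusted p = 0.0499, edgeR), with 3 at an unadjusted p under 0.05 and 3 called higher by DESeq2. In oligodendrocyte-like nuclei none of 7 was called by edgeR although all 7 were positive (median 1.85), 5 had an unadjusted p under 0.05 and DESeq2 called 3. H2-D1 had 2.34 to 185.5 CPM in P301S libraries of that class (median 20.9) and 1.31 to 7.08 CPM in tau-free libraries (median 3.95), a difference of 2.89 ± 0.78 (adjusted p = 0.1, edgeR).

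Complement genes in oligodendrocyte-like nuclei were not called by edgeR in any of 5 tested (median 1.02), while 4 had an unadjusted p under 0.05 and DESeq2 called 2. In microglia-like nuclei 1 of 8 tested cholesterol genes was called, Abca1 (0.75 ± 0.16, higher), which is 12.5% against 14.7% of all genes of the class. None of 7 MEF2 and class IIa histone deacetylase genes was called there, with 1 at an unadjusted p under 0.05 and none by DESeq2. None of 7 p53 and unfolded protein stress genes was called in OPC-like nuclei, with 1 at an unadjusted p under 0.05 and none by DESeq2.

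In microglia-like nuclei of tau-free libraries Mb21d1 stood at 32.2 to 39.0 CPM in the 5 labelled Cgas+/+, 15.9 and 22.3 CPM in the 2 labelled Cgas+/- and 21.6 and 33.1 CPM in the 2 labelled Cgas-/-. In P301S libraries its medians were 36.6, 44.6 and 52.9 CPM in the same order of labels. The difference by Cgas label was not tested.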
